A study of Sus scrofa with 6 samples.

Results

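The subject of this account is 3 miRNAs of the miniature pig tooth germ, miR-185, miR-1306 and miR-1307, followed through 12 RNAs. The array carried 8 probes whose name holds one of these numbers, out of 742 experimental probes. Of the 8, 4 are among the 188 probes for mature pig miRNAs (ssc-miR-185, ssc-miR-1306-3p, ssc-miR-1306-5p and ssc-miR-1307), and the other 4 are named after other species' miRNAs or predicted reads. The 3 miRNAs were chosen by measured values, namely their patterns over embryonic day and tooth class in these same RNAs. Their differences between days and classes are therefore given as a description, without a test.

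Tooth germs of 4 deciduous types (incisor, canine, premolar and molar) were dissected from miniature pig embryos on days 40, 50 and 60, which makes 12 conditions with 1 RNA each. Whether a germ RNA came from 1 embryo or from several is not stated in the labels. The 4 spots of each probe on an array are technical replicates and no value carries a spread between animals. The RNAs were hybridised in pairs, one labelled with Cy3 and one with Cy5, on 6 arrays without dye swaps, and precision is limited by this small number of arrays. Incisor and canine are called anterior here and premolar and molar posterior, with 6 RNAs each. Levels are log2 intensities after background correction and normalisation within and between arrays, and levels of different probes cannot be set against each other. In bulk tissue, fewer cells of a type and less of a miRNA per cell cannot be told apart.

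A miRNA is a short RNA cut from a hairpin precursor, and it guides silencing proteins to messenger RNAs, mainly by pairing of its seed, bases 2 to 8. Either strand of the hairpin can be kept, which gives a 5p and a 3p product with different seeds and different targets. DGCR8, the partner of the nuclease Drosha in the first cut of miRNA precursors, has the miR-1306 hairpin inside its own gene, and in humans DGCR8 and miR-185 both lie in the chromosome segment lost in the 22q11.2 deletion syndrome. The RefSeq gene table of the pig assembly Sscrofa11.1 placed MIR1306 within DGCR8, MIR185 within TANGO2 and MIR1307 within USMG5, all on one chromosome, with 0 coding genes between TANGO2 and DGCR8. All 3 miRNA genes were matched there by name.

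The target sequences of the 8 probes, as deposited with the spot values, are shown because they tell which probes read the same strand and which do not. Capitals mark the seed.
ssc-miR-185: uGGAGAGAaaggcaguuccuga
PN-185-5p-50418: cUGGAGAGaaaggcaguuccuga
ssc-miR-1306-5p: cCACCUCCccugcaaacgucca
ssc-miR-1306-3p: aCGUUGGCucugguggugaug
miR-1306-3p-16142: aCGUUGGCucugguggugauguu
ssc-miR-1307: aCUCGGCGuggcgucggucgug
miR-1307-3p-821: aCUCGGCGuggcgucggucgugg
miR-1307-5p-10307: uCGACCGGaccucgaccggcuc

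PN-185-5p-50418 is the sequence of ssc-miR-185 with 1 more base at the 5′ end, which moves the seed by that base. The longer 3p probes of miR-1306 and miR-1307 add 2 bases and 1 base at the 3′ end and keep the seed. None of the 6 seeds is shared with another experimental probe. ssc-miR-1307 is rich in G and C, with 72.7% of its 22 bases, against 50.0% in ssc-miR-185.

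All 8 probes were above background in at least 3 RNAs, as were 656 of the 742, and 5 of the 8 were above background in all 12 RNAs, as were 222 of the 742. The 5 are ssc-miR-185, PN-185-5p-50418, ssc-miR-1306-5p, ssc-miR-1307 and miR-1307-3p-821. A probe counted as above background where its mean lay over 3 SD of the blank spots above the surface fitted through them. The tissue label was set against miRNAs known from dental mesenchyme and epithelium. The mesenchymal list was found with all 6 names, and 7 of its 8 probes were above background in every RNA, while only 2 of 8 epithelial names had a mature pig probe, of which ssc-miR-205 was above background in all 12 RNAs and ssc-miR-184 in 3. The mean log2 level of the skeletal muscle list (7 probes) was 7.50 to 7.63 in the premolars, 6.32 to 6.47 in the molars and 6.45 to 7.17 in the anterior germs. None of its 7 probes was above background in every RNA, and the list's part in the differences below was not tested. The levels of ssc-miR-133a, ssc-miR-133b and ssc-miR-206 reached 10.23, 10.70 and 7.90. Those of the other muscle probes reached at most 6.55 in any RNA, and these probes were above background in 1 to 4 RNAs. The mean level of the neural list (4 probes) was 7.30 in the day-50 molar and 6.80 in the day-60 molar, against 6.53 to 6.71 in the other RNAs. Of these probes only ssc-miR-128 was above background in all 12 RNAs, and the others were in 4 or 5. The levels of ssc-miR-124a and ssc-miR-129 reached at most 6.68 and 6.55 in any RNA.

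The molars of days 50 and 60, which shared an array, stood apart from the other 10 RNAs. For 77 of the 656 probes both lay more than 2-fold outside the range of the other 10, and for 0 probes did this hold on any of the other 5 arrays. None of the 8 probes described here was among the 77. In these molars let-7f, named after its values were seen, was at 12.58 and 12.75 on the log2 scale, against 6.51 to 7.69 elsewhere. Tooth type with day and the array cannot be told apart there, and values without this array are given beside the results that it moves by over 1.5 times.

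ssc-miR-185, known in human cells to repress genes of lipid synthesis, was higher in anterior than in posterior germs and higher on day 60 than on day 40. In the incisor its log2 level was 7.33 on day 40, 8.34 on day 50 and 7.97 on day 60. In the canine it was 7.71, 7.79 and 8.46 on the same days. The highest values thus came from the day-60 canine and the day-50 incisor, and these RNAs did not differ beyond the spread of their spots (SD 0.12 and 0.14). They were also the only anterior RNAs labelled with Cy5, and the dye estimate for this probe is given below. In the premolar the level of ssc-miR-185 was 7.46, 7.67 and 7.66 on days 40, 50 and 60. In the molar it was 7.07, 7.51 and 7.51. The classes overlapped: 5 of 6 anterior RNAs lay above the highest posterior one, and the day-40 incisor lay below 5 of them. Of the 11 steps between neighbours in the order of levels, 5 were larger than the pooled SD of the spots.

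**Figure D1:**
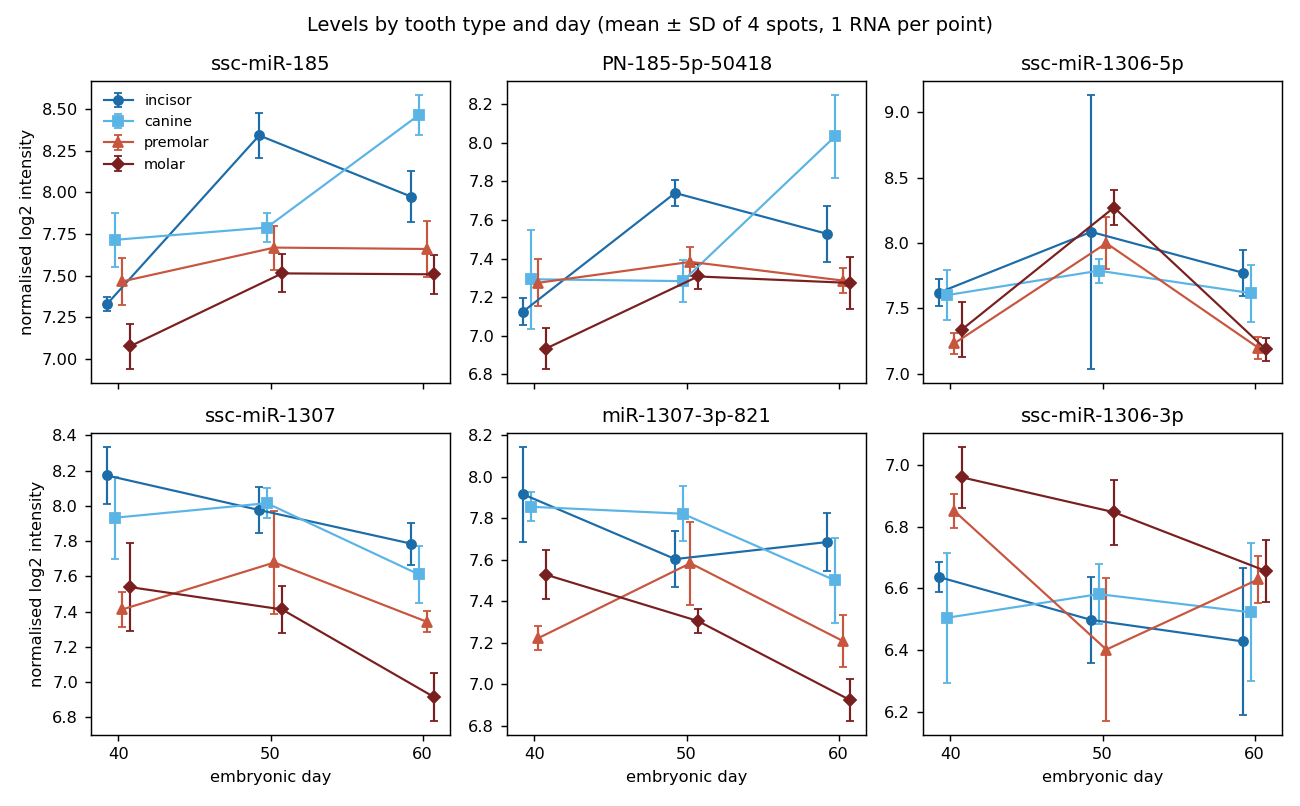
Normalised log2 intensity (vertical axis) against embryonic day (horizontal axis) for 6 of the 8 probes; each point is the mean of 4 spots of 1 RNA, bars are the SD of those spots, and lines join the days of a tooth type. ssc-miR-185 and PN-185-5p-50418 are highest in the day-60 canine, ssc-miR-1307 and miR-1307-3p-821 are lowest in the day-60 molar, and the day-50 incisor of ssc-miR-1306-5p has a spot SD of 1.05.

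The anterior mean of ssc-miR-185 was 7.93 ± 0.42 (SD, n = 6 RNAs) and the posterior mean 7.48 ± 0.22 (SD, n = 6 RNAs). The difference of posterior minus anterior was -0.45 on the log2 scale, with -0.25 on day 40, -0.47 on day 50 and -0.63 on day 60. A posterior mean below the anterior one on all 3 days was found for 4 of the 8 probes and for 25.2% of the 656 probes detected in at least 3 RNAs, and nothing is read from that count since the choice of the miRNAs used it. The class difference depended on the normalisation, and was -0.01 when each channel was only centred on its median and 0.05 without scaling between arrays.

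From day 40 to day 60 the log2 level of ssc-miR-185 differed by 0.51 ± 0.25 (SD over 4 tooth types). The difference was 0.64 in the incisor, 0.75 in the canine, 0.19 in the premolar and 0.43 in the molar, so it had one sign in 4 of 4 tooth types. Between these days the canine went from Cy3 to Cy5 and the molar from Cy5 to Cy3, while the incisor and premolar kept their dye. Day 60 lay above day 40 in every tooth type for 2 of the 8 probes, both of miR-185, and for 16.5% of the 656. For PN-185-5p-50418 the premolar's difference was 0.01, less than the SD of its spots on day 40 (0.12) and day 60 (0.06). The 4 RNAs of day 40 were hybridised only with each other, on 2 arrays, so day 40 and those arrays cannot be told apart. Without scaling between arrays the day difference of ssc-miR-185 was 0.97, and the median of all 656 probes then stood at 0.21. Without the day-60 canine it was 0.32.

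RNAs that shared an array give ratios that do not rest on scaling between arrays. For ssc-miR-185, the day-60 canine stood above the day-50 premolar by 0.80 ± 0.17 (log2, SD of 4 spots), and the day-50 incisor above the day-50 canine by 0.55 ± 0.14. The day-40 molar fell below the day-40 canine with a log2 ratio of -0.64 ± 0.17, and the day-60 premolar below the day-60 incisor with -0.31 ± 0.17. The premolar and incisor of day 40 had a ratio of 0.14 ± 0.11, and the molars of days 50 and 60 one of 0.01 ± 0.14, with spots on both sides of 0. Posterior was thus lower than anterior in all 4 spots on 3 of the 4 arrays that held both classes. The posterior RNA carried Cy5 on 3 of those arrays and Cy3 on the one with the day-60 canine, which also paired different days. These ratios depended on the normalisation within arrays. With each channel only centred on its median, the canine over the premolar was at 1.08, whereas the molar over the canine of day 40 was at -0.0054 and the premolar over the incisor of day 60 at 0.20. The incisor over the canine of day 50 turned to -0.21, and the day-50 over the day-60 molar stood at 0.45.

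**Figure D2:**
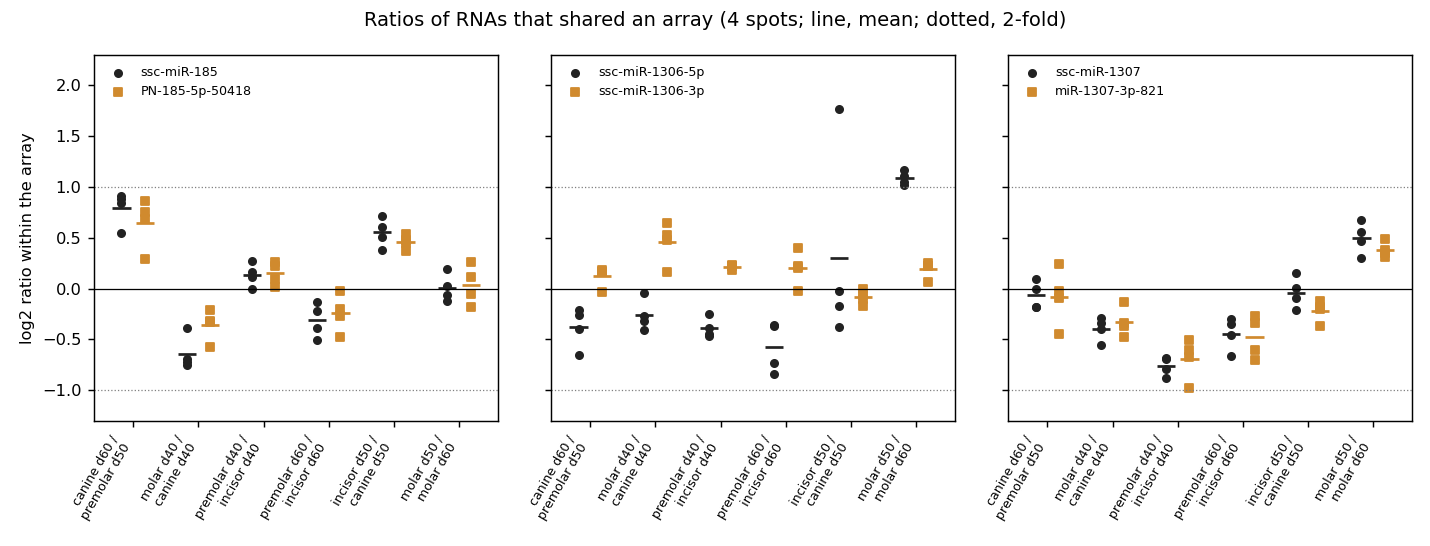
Log2 ratios within each of the 6 arrays (horizontal axis, first-named over second-named RNA, d for embryonic day) for 3 pairs of probes; points are the 4 spots, short lines their mean, and dotted lines mark 2-fold. Only ssc-miR-1306-5p in the day-50 molar over the day-60 molar is past 2-fold in all 4 spots, and its day-50 incisor ratio has 1 spot at 1.77 and 3 spots below 0.

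PN-185-5p-50418, the form with 1 more base at the 5′ end, followed the same course, with Pearson's r of 0.96 against ssc-miR-185 over the 12 RNAs. These probes differ by 1 base, so the same molecules may bind both, and the points share arrays, dyes and normalisation. Its log2 level on days 40, 50 and 60 was 7.13, 7.74 and 7.53 in the incisor, and 7.29, 7.28 and 8.03 in the canine. It was 7.27, 7.38 and 7.29 in the premolar, and 6.93, 7.31 and 7.27 in the molar. The day-60 canine was highest and the day-40 molar lowest, as for the shorter form, and the classes overlapped. Posterior minus anterior was -0.26 and day 60 minus day 40 was 0.37.

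ssc-miR-1307, the 3p product of its hairpin, was lower in posterior than in anterior germs and lower on day 60 than on day 40. In the incisor its log2 level was 8.17, 7.98 and 7.78 on days 40, 50 and 60. In the canine it was 7.93, 8.01 and 7.61. The premolar had 7.41, 7.68 and 7.34, and the molar 7.54, 7.41 and 6.91. The classes met only at the edge: 5 of 6 posterior RNAs lay below the lowest anterior one, the day-60 canine, and the day-50 premolar lay above it.

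The anterior mean of ssc-miR-1307 was 7.91 ± 0.19 (SD, n = 6 RNAs) and the posterior mean 7.38 ± 0.26 (SD, n = 6 RNAs), a difference of -0.53. It was -0.58 on day 40, -0.45 on day 50 and -0.57 on day 60, and -0.44 with the premolar alone and -0.63 with the molar alone as the posterior side. Centring each channel on its median brought the difference to -0.15 and leaving out the scaling between arrays to -0.11. The sign was negative in all 30 alternatives computed for this difference. Many of them overlap, each leaving out 1 array or 1 RNA. Exchanging the later molars or taking the dyes from the columns left the value at -0.53, so these could not change the sign.

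Day 60 minus day 40 was -0.35 ± 0.23 (SD over 4 tooth types) for ssc-miR-1307, with -0.39 in the incisor, -0.32 in the canine, -0.07 in the premolar and -0.62 in the molar. The premolar's difference was smaller than the SD of its spots on day 40, 0.10. Day 60 lay below day 40 in all 4 tooth types for 2 of the 8 probes, both of miR-1307-3p, against 17.1% of the 656. For miR-1307-3p-821 the premolar's difference was -0.01, smaller in size than the SD of its spots on day 40 (0.06) and day 60 (0.12). Without scaling between arrays the mean difference of ssc-miR-1307 was 0.08, against a median of 0.21 over all probes. Without the array of the later molars it was -0.18, and without the day-40 incisor -0.21.

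Within arrays, ssc-miR-1307 was lower in the posterior RNA in all 4 spots on 3 of 4 arrays. The log2 ratio of the day-40 premolar over the incisor was -0.76 ± 0.09 (SD of 4 spots), that of the day-40 molar over the canine -0.39 ± 0.11, and that of the day-60 premolar over the incisor -0.44 ± 0.16. The day-60 canine over the day-50 premolar gave -0.07 ± 0.14, which is no difference beyond the spots. That last array is the one with the dyes the other way round and with different days. The day-50 molar stood above the day-60 molar by 0.50 ± 0.15, and the incisor and canine of day 50 gave -0.04 ± 0.15. The 3 arrays with a lower posterior level all had the posterior RNA in Cy5, and 4 of 6 posterior RNAs were labelled with Cy5 against 2 of 6 anterior ones, while each day had 2 of 4. With median centring the premolar over the incisor of day 40 stayed at -0.80, while the molar over the canine of day 40 turned to 0.37 and the premolar over the incisor of day 60 came to 0.0087. The incisor over the canine of day 50 was then at -0.78 and the canine over the premolar at 0.14.

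miR-1307-3p-821, 1 base longer at the 3′ end, had Pearson's r of 0.96 with ssc-miR-1307 over the 12 RNAs, and again the same molecules may bind both. Its log2 level on days 40, 50 and 60 was 7.92, 7.60 and 7.69 in the incisor, and 7.86, 7.82 and 7.50 in the canine. It was 7.22, 7.58 and 7.21 in the premolar, and 7.53, 7.30 and 6.92 in the molar. The day-40 incisor was highest and the day-60 molar lowest, as for ssc-miR-1307. Posterior minus anterior was -0.43 and day 60 minus day 40 was -0.30.

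The opposite strand of the hairpin, miR-1307-5p-10307, was above background in 7 of 12 RNAs. Its levels lay between 6.30 and 6.77, a range of 0.47. Its Pearson's r with ssc-miR-1307 was -0.13 over the 12 RNAs, but both were above background in only 7, so this r does not show whether the strands follow each other. Posterior minus anterior was 0.10 and day 60 minus day 40 was -0.09.

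ssc-miR-1306-5p, one strand of the hairpin inside DGCR8, was highest on day 50. In the molar its log2 level was 7.34, 8.27 and 7.19 on days 40, 50 and 60. In the premolar it was 7.23, 8.0 and 7.20. In both posterior types day 50 stood above the other days by more than the SD of any of their spots, which was at most 0.21. In the canine the levels were 7.60, 7.79 and 7.62, a smaller step with spot SDs of 0.09 to 0.22.

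In the incisor ssc-miR-1306-5p read 7.62, 8.08 and 7.77, and here the day-50 value rests on 1 spot. Its 4 spots on day 50 were at 7.45, 7.60, 7.64 and 9.65, with deposited intensities of 115, 119, 125 and 476. The mean of the 3 lower spots was 7.56 and the median of all 4 was 7.62, both below the day-60 incisor. Over all 656 probes and 12 RNAs, a spot SD above 1 occurred in 0.457% of the 7872 values, and the median spot SD was 0.11. For the ratio of the incisor over the canine of day 50, the mean here was 0.30 ± 0.99 (SD of 4 spots), whereas the authors' deposited table gives -0.49.

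**Figure D3:**
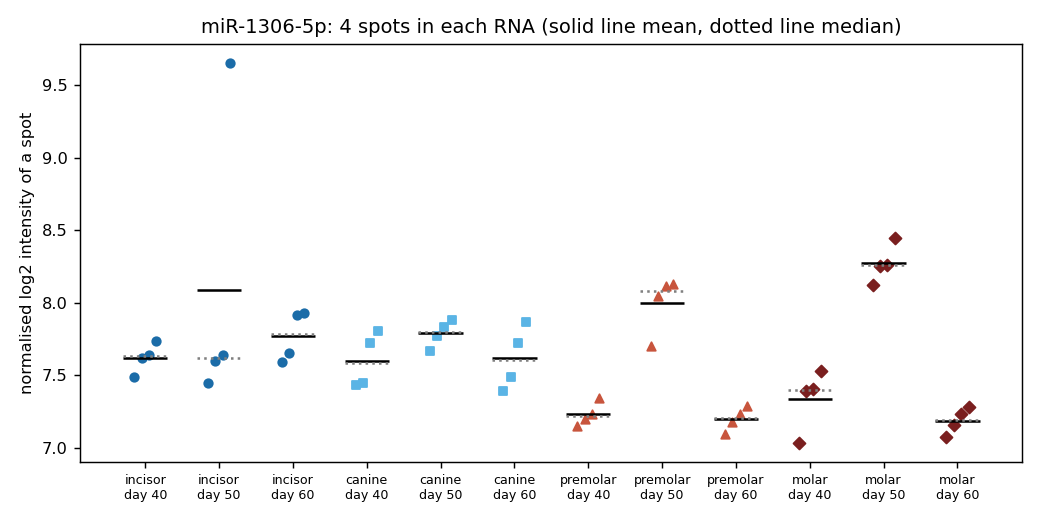
Normalised log2 intensity of each of the 4 spots (vertical axis) of ssc-miR-1306-5p in the 12 RNAs (horizontal axis, tooth type and embryonic day); solid lines are means and dotted lines medians. The day-50 molar and premolar lie above the other days of their type, and the day-50 incisor has 3 spots from 7.45 to 7.64 and 1 at 9.65.

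Day 50 minus the mean of days 40 and 60 was 0.59 ± 0.38 (SD over 4 tooth types) for ssc-miR-1306-5p, with 1.01 in the molar, 0.78 in the premolar, 0.39 in the incisor and 0.18 in the canine. With the median of the 4 spots it was 0.49, and -0.09 in the incisor. By means, ssc-miR-1306-5p was the only one of the 8 probes with its highest level on day 50 in 4 of 4 tooth types, against 1.07% of the 656, and by medians this held in 3 of 4. The column headings and labels of the array of the later molars disagree on the order of its RNAs and dyes, and with those RNAs exchanged the day-50 difference was 0.18. The title of the array with the day-50 incisor names another day for it than its other labels do, and day 50 was used.

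The molars of days 50 and 60 shared an array, and on it ssc-miR-1306-5p was 2.12-fold higher on day 50 (log2 ratio 1.08 ± 0.06, SD of 4 spots, with spots from 1.02 to 1.17). This was the only 1 of 48 ratios of the 8 probes on the 6 arrays that reached 2-fold in one direction in all 4 spots. Among all detected probes, such ratios made up 3.25% on that array. The authors' deposited table gives 1.25 for the same ratio, and its direction rests on the headings named above. Without background correction the mean log2 ratio was 0.99, and 1 of the 4 spots was past 2-fold. With median centring the mean was 1.56. On the other arrays, where none of the 8 probes was past 2-fold, the shares were 4.1% for the day-60 canine over the day-50 premolar, 3.97% for the molar over the canine of day 40, 3.4% for the premolar over the incisor of day 40, 5.7% for the premolar over the incisor of day 60 and 10.8% for the incisor over the canine of day 50.

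Between the tooth classes, ssc-miR-1306-5p was 7.75 ± 0.18 in anterior and 7.54 ± 0.47 in posterior RNAs (SD, n = 6 RNAs each). Posterior minus anterior was -0.33 on day 40, 0.20 on day 50 and -0.50 on day 60. The sign thus turned on day 50, when the posterior germs had their highest levels. The anterior mean and the day-50 difference include the day-50 incisor, whose level was raised by a spot at 9.65. Over the 3 days the class difference was -0.21 by means and -0.11 with the median of the 4 spots. Within arrays the posterior RNA was lower on the 3 arrays that paired equal days, with -0.26 ± 0.16 for the molar over the canine of day 40, -0.39 ± 0.10 for the premolar over the incisor of day 40 and -0.57 ± 0.25 for the premolar over the incisor of day 60. The day-60 canine was below the day-50 premolar, at -0.38 ± 0.20, and here the posterior RNA carried Cy3, against Cy5 on the other 3. With median centring these ratios were 0.40, -0.42, -0.15 and -0.15 in the same order, so the first changed sign. Under median centring the mean difference over the 3 days was 0.24 and without scaling between arrays 0.31, so the sign of the class difference turned with the scaling. Between days 40 and 60 ssc-miR-1306-5p differed by -0.01, less than the spread over tooth types, 0.13. Without the array of the later molars this difference was 0.07.

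The 3p strand, ssc-miR-1306-3p, was above background in 10 of 12 RNAs and not above it in the day-50 incisor and the day-60 canine. Its log2 level was 6.64, 6.50 and 6.43 on days 40, 50 and 60 in the incisor, and 6.50, 6.58 and 6.52 in the canine. It was 6.85, 6.40 and 6.63 in the premolar, and 6.96, 6.85 and 6.66 in the molar. The day-40 molar, the day-40 premolar and the day-50 molar were highest. Of the 11 steps between neighbours in the order of levels, 2 exceeded the pooled SD of the spots. Posterior minus anterior was 0.20, with 0.33, 0.08 and 0.17 on the 3 days, and it was 0.32 with median centring and 0.50 without scaling between arrays. Within arrays it was 0.45, 0.21 and 0.20 where the posterior RNA carried Cy5, and -0.12 where it carried Cy3. For the 0.20 and the -0.12, spots lay on both sides of 0. A posterior mean above the anterior one on all 3 days was found for 2 of the 8 probes, both of miR-1306-3p, and for 23% of the 656.

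ssc-miR-1306-3p and ssc-miR-1306-5p come from one hairpin and had Pearson's r of -0.33 over the 12 RNAs. Both were above background in 10 RNAs, and the levels of the 3p probe span only 0.56, so this r does not show whether the strands differ in their course. On the array of the later molars, where the 5p strand had a log2 ratio of 1.08, the 3p strand had 0.19 ± 0.09 (SD of 4 spots). The longer 3p probe, miR-1306-3p-16142, was above background in 7 of 12 RNAs, ranged from 6.27 to 6.84 and had r of 0.51 with ssc-miR-1306-3p.

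**Figure D4:**
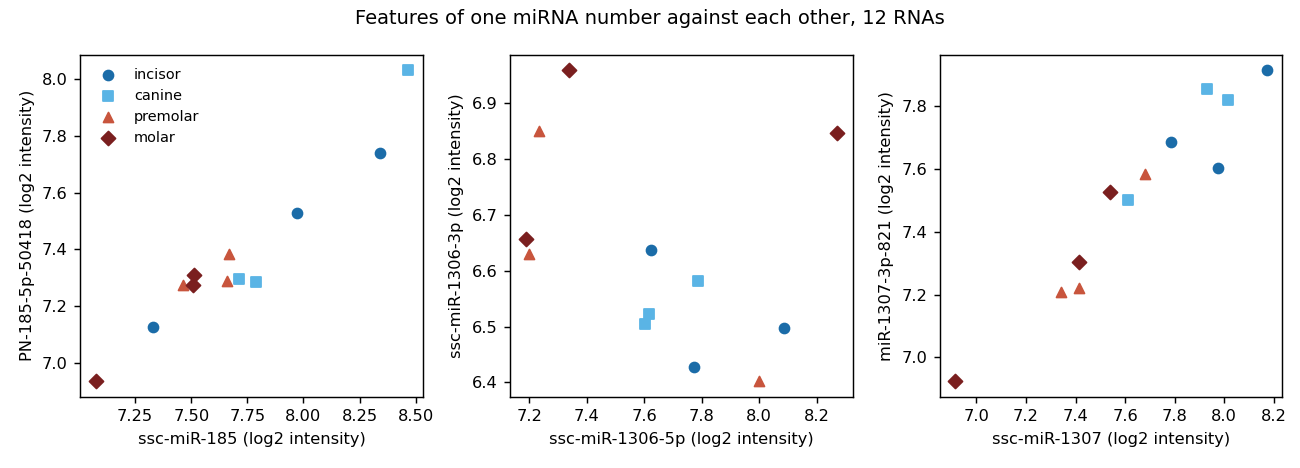
Log2 intensity of one probe against another of the same miRNA number over the 12 RNAs (each point 1 RNA, marked by tooth type; both axes are normalised log2 intensities). The forms of miR-185 and of miR-1307-3p lie along a line (Pearson's r of 0.96 each), and the 3p strand of miR-1306 spans only 0.56 (r of -0.33 with the 5p strand).

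Among the 4 mature pig probes themselves, Pearson's r over the 12 RNAs ran from -0.68 (ssc-miR-185 with ssc-miR-1306-3p) to 0.47 (ssc-miR-1306-5p with ssc-miR-1307). ssc-miR-185 and ssc-miR-1306-5p, whose host genes are neighbours, had r of 0.37. The r values of ssc-miR-1306-5p include its day-50 incisor level, raised by a spot at 9.65, and were not computed with spot medians. In the median over the 8 probes, posterior minus anterior was -0.23, against -0.02 over all 656, with 5 of 8 below 0 against 55.6%. Day 60 minus day 40 had a median of -0.05 over the 8 and -0.02 over all.

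Of 77 other mature pig probes above background in all 12 RNAs, those most like ssc-miR-185 by Pearson's r were miR-143 (0.72), known from smooth muscle and mesenchyme, and the closely related miR-107 (0.65) and miR-103 (0.65). Those most like ssc-miR-1307 were miR-19b (0.78), a product of the miR-17 cluster, miR-107 (0.63) and miR-103 (0.63). For ssc-miR-1306-5p they were miR-222 (0.68), miR-17-5p (0.49) and miR-106a (0.48), and for ssc-miR-1306-3p miR-28-3p (0.65), let-7i (0.43) and miR-199b* (0.38). The 12 points share arrays, dyes and normalisation, and these values are descriptions. Those of ssc-miR-1306-5p also include its day-50 incisor level, raised by a spot at 9.65. Without the molars of days 50 and 60, r of ssc-miR-1307 was 0.63 with miR-19b, 0.29 with miR-107 and 0.29 with miR-103, and r of ssc-miR-1306-3p with miR-199b* was 0.21. Of the 3 names, 2 then remained among the first 3 for ssc-miR-185, 1 each for ssc-miR-1306-5p and ssc-miR-1306-3p, and 0 for ssc-miR-1307. In those molars miR-19b was at 6.74 to 6.78, against 8.77 to 12.41 in the other RNAs. By Spearman's rho, miR-107 (0.78) came first for ssc-miR-185, and for ssc-miR-1307 only miR-19b remained among the first 3, joined by miR-199a-5p (0.57) and miR-143 (0.56).

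Of 5 further miRNA numbers whose human genes lie in the same chromosome band as miR-185 and miR-1306, 2 were on the array, miR-130b and miR-301b, with 4 probes. The probe for mature pig miR-130b was above background in all 12 RNAs, with levels of 7.98 to 10.30. Its posterior minus anterior difference was -0.57 and its day 60 minus day 40 difference -0.62, opposite in sign to that of ssc-miR-185. The other 3 probes were above background in 5 to 9 RNAs.

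The dye was not used in choosing the miRNAs and was tested over all 656 probes with limma, in a fit of tooth type, day and dye in which arrays entered as random blocks. Cy5 minus Cy3 was 0.30 ± 0.09 (SE) on the log2 scale for ssc-miR-185, with an adjusted p of 0.243 (limma, Benjamini-Hochberg). On leaving out an array the estimate for ssc-miR-185 ran from 0.12 (without the array of the day-50 incisor and canine) to 0.79 (without that of the day-60 canine and day-50 premolar). For PN-185-5p-50418 it was 0.26, with 0.14 and 0.49 without these arrays, and for ssc-miR-1306-3p 0.12, with 0.20 and -0.21. These 3 of the 8 probes, and 106 of the 656, had an unadjusted p under 0.05 in limma, and 0 of the 656 (0%) passed an adjusted p of 0.05. The 106 are a larger share than 0.05, and the smallest adjusted p was 0.187 (limma). With so few arrays, the 0 probes passing do not show that dye effects are absent. For ssc-miR-1307 the estimate was -0.04 ± 0.06 (SE), with an adjusted p of 0.748 (limma), and it ran from -0.18 to 0.06 on leaving out an array. For ssc-miR-1306-5p the estimate was 0.11 ± 0.07 (SE), with an adjusted p of 0.493 (limma), and it ran from -0.07 to 0.23 over 13 alternatives. With the dye as a term in a least-squares fit, posterior minus anterior was -0.54 for ssc-miR-185, -0.52 for ssc-miR-1307 and -0.22 for ssc-miR-1306-5p. For ssc-miR-1306-3p it was 0.15.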

How the data were processed

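The deposited file of each array holds the linear intensity of every spot in 2 columns, with no background removed; the sources used here do not name the scanner or image software. RNAs were taken from the column headings, per the file headers, and dyes from the labels. Of 3968 spots, 716 are blank. Commas inside numbers were taken out. A robust loess surface (span 0.3) through the blank spots was used as background in normexp (offset 50), followed by loess within arrays and Aquantile between arrays, and the log2 values of 4 spots were averaged (R 4.3.3, limma 3.58.1, statmod 1.5.0). A deposited table with the authors' own log2 values was used only for comparison. Its values had the direction of the array name, its first RNA over its second (r of 0.69 to 0.86 with the ratios here over 742 probes), with medians of 0.01 to 0.16, and its scaling and centring are unknown.

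Probes above background in at least 3 of 12 RNAs (656) formed the background of the counts by class, day and dye. Ratios past 2-fold were counted among probes above background in at least 1 of the 2 RNAs of an array, 338 to 732 probes per array. Detection was counted among all experimental probes. Blank medians ran from 39.2 to 273 and probes detected per RNA from 266 to 732. Only the dye effect was tested (limma, two-sided, Benjamini-Hochberg at 0.05, array as random block), and its code was tested on simulated data. That p-value rests on the spread left after tooth type, day and dye, with the 2 RNAs of an array taken as correlated (0.84). It compares single RNAs and says nothing about animals. The probes described and the marker and neighbour lists were chosen with earlier results of these data known. By rule, mature pig probes and those detected in all 12 RNAs are given in every RNA, the rest by range, and the 3 mature pig probes with the highest Pearson r are named for each. Endothelial, blood and neural markers were also looked up: 0 of 1, 2 of 5 and 4 of 5 names had a mature pig probe, with mean log2 levels over all RNAs of 6.17 to 6.55 for blood.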

Additional observations from a re-analysis of the deposited data

Results flagged for a closer look

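In 25 groups of 4 to 6 RNAs, 2 had one value far from the rest by Dixon's criterion, used here only as a flag. The RNAs of a group differ in tooth type or day and are not replicates. The miRNAs were also chosen for such patterns, so the flag is not read as a test. The day-40 molar had a level of 7.07 for ssc-miR-185, the lowest of the 6 posterior RNAs, with the next at 7.46. The same RNA had 6.93 for PN-185-5p-50418, with the next at 7.27, and since these probes differ by 1 base this is not a second observation.

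For ssc-miR-1306-5p, day 60 minus day 40 was positive in both anterior types and negative in both posterior types, and the means differed by 0.18 on the log2 scale. It was 0.15 in the incisor, 0.02 in the canine, -0.03 in the premolar and -0.15 in the molar. Each is smaller in size than a spot SD of the RNAs compared. Those SDs were 0.17, 0.22 and 0.08 in the day-60 incisor, canine and premolar, and 0.21 in the day-40 molar. The contrast between classes was not tested.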

How the results depend on the processing

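The alternatives of median spots, a second-degree background surface, adjustment for dye (alone and with median centring), single posterior types and likeness without the later molars were chosen after seeing the data. Posterior minus anterior of ssc-miR-1307 was -0.46 without background correction, -0.68 at an offset of 16, -0.15 under median centring (-0.15 with dye adjustment), -0.11 without scaling between arrays, -0.44 for the premolar and -0.63 for the molar, and -0.67 to -0.42 on leaving out an array or RNA. For ssc-miR-185 it was -0.011 under median centring (-0.11 with dye adjustment) and 0.050 without scaling, and for ssc-miR-1306-5p 0.24 (0.22) and 0.31, and -0.36 (without the day-50 molar) to -0.11 (without the array of the day-50 incisor and canine) on leaving out an array or RNA. For ssc-miR-1306-3p it was 0.32 and 0.50. Day 60 minus day 40 of ssc-miR-185 was 0.32 to 0.64 and of ssc-miR-1307 -0.49 to -0.18 on leaving out an array or RNA. For ssc-miR-1306-5p it was 0.20 under median centring (0.20 with dye adjustment), 0.47 without scaling and 0.27 with the later molars exchanged. Without scaling it was 0.97 for ssc-miR-185, 0.076 for ssc-miR-1307 and 0.14 for ssc-miR-1306-3p. That setting moved the median of all probes to 0.20 between classes, 0.21 between days 40 and 60 and 0.10 for day 50. Day 50 minus the other days was 0.32 for ssc-miR-1307 without scaling, -0.0047 with the molars exchanged and -0.047 to 0.30 on leaving out an array or RNA (lowest without the array of the day-50 incisor and canine), and 0.18 for ssc-miR-1306-5p with the molars exchanged. The count of ratios past the fold was 0 without background correction and 2 at 1.5-fold. Without scaling, 3 probes passed the dye test in limma. The causes were not tested.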
